A study of Drosophila melanogaster with 3 samples.

Results

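The vacuolar ATPase (V-ATPase) genes were taken as the protein-coding genes of the Ensembl annotation on dm6 whose symbol starts with Vha, which gave 33 of 13968 protein-coding genes. Their promoters were examined in ChIP-seq peak lists of Grauzone, a zinc finger protein, in whole fruit fly embryos. Chromatin immunoprecipitation followed by sequencing (ChIP-seq) pulls down DNA bound by a protein and reads it. The flies were a transgenic Drosophila melanogaster line stably expressing grau with green fluorescent protein at its C-terminal end, and the precipitation used an antibody against that tag. Whether an untagged grau gene was also present was not stated. There was 1 group, with 3 biological replicates of embryos aged 0 to 24 hours, of both sexes pooled. No control list was analysed here, so no background measured in the same way stands beside the values. In whole embryos, binding in few cells and weaker binding in many cells cannot be told apart.

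V-ATPases are rotary proton pumps that acidify lysosomes, endosomes and secretory vesicles, and in insect epithelia such as the Malpighian tubule they also energise the plasma membrane. The V1 sector, in the cytosol, splits ATP with its A and B subunits, turns a central stalk of D and F, and is held by peripheral stalks of E and G, a collar subunit C and a regulatory subunit H. The V0 sector, in the membrane, carries protons through subunit a and a ring of proteolipids c and c'', with subunit d joining the ring to the stalk and a small subunit e. Several fly subunits are encoded by more than 1 gene, some of them used in most tissues and others in few, often the testis.

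The DNA at 7 of the members' peaks is given to show how unlike these places were in sequence. Each window reaches 50 bp to either side of a point source, the base with the most enrichment in a peak of the reproducible list, and is written 5′ to 3′ along the strand of the Vha gene, from RefSeq's dm6 assembly. Shown are the A subunit genes with a peak, a peripheral stalk gene, the H subunit gene, an e subunit gene, the far start of the a subunit gene with the strongest peak, and the member with the weakest reproducible peak. Only windows with no untranslated exon bases were printed. Capitals mark matches on either strand to the 8 words searched for, which are spelled out with the motif counts.
Vha68-1 (chr2L:13004199-13004299, minus strand): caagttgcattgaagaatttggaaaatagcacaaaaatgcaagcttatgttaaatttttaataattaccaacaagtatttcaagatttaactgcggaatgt
Vha68-2 (chr2L:12974148-12974248, plus strand): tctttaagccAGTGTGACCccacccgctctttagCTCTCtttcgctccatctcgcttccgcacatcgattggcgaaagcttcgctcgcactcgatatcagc
Vha26 (chr3R:5591573-5591673, plus strand): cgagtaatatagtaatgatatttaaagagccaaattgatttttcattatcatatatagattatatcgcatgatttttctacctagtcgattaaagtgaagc
VhaSFD (chr2L:16727848-16727948, minus strand): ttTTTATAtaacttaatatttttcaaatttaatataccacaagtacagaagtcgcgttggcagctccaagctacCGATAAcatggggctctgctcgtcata
VhaM9.7-a (chr3L:4262511-4262611, plus strand): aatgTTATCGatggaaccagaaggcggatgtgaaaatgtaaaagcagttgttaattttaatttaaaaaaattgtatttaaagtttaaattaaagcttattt
Vha100-2, far start (chr3R:18399293-18399393, minus strand): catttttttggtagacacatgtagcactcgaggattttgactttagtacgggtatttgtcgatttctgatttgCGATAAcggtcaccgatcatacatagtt
VhaAC39-2 (chr3R:23159482-23159582, minus strand): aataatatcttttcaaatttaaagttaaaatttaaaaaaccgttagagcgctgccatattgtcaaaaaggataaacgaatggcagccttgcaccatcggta
These windows ranged from 23.8% GC at VhaM9.7-a to 54.5% at Vha68-2. Capitals are absent from the windows of Vha68-1, Vha26 and VhaAC39-2.

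Of the 33 Vha genes, 15 had a reproducible promoter peak, or 45.5% (95% Clopper-Pearson interval 28.1% to 63.6%, which covers counting error only). Here a gene counts as having a promoter peak when a point source falls no more than 500 bp from any of its annotated starts. The reproducible list is the submitters' optimal list of 9624 peaks by irreproducible discovery rate (IDR), a measure of how well ranks repeat between replicates. Over all protein-coding genes, 32.0% had such a peak. In the 9624 strongest peaks of each replicate, the Vha genes with a promoter peak numbered 12 in replicate 1, 16 in replicate 2 and 16 in replicate 3, or 44.4% ± 7.00 (SD, n = 3). The shares of all protein-coding genes were 34.1%, 33.2% and 30.7% in replicates 1, 2 and 3. Replicate 1 thus put the Vha genes 2.23 percentage points above all protein-coding genes, against 15.2 and 17.8 points in replicates 2 and 3. Some Vha genes ranked near the cut at 9624. In replicate 1 VhaM9.7-c, VhaAC39-2 and VhaPPA1-1, which have a reproducible peak, ranked 9795, 9857 and 9977, just past it. In replicate 2 VhaM9.7-a, at rank 9247, lay just inside it. Others were far from the cut in replicate 1, where Vha68-1 had no promoter peak and that of Vha68-2 ranked 22100. How far the cut accounts for the lower value of replicate 1 was not tested. In the submitters' list from pooled alignments, 22 Vha genes had a promoter peak, or 66.7%, against 47.8% of protein-coding genes. In the whole lists of replicates 1, 2 and 3, of 30000 peaks each, 57.6%, 63.6% and 66.7% of Vha genes had one. The shares of protein-coding genes there were 50.7%, 51.5% and 47.4%.

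The Vha promoter peaks were of ordinary strength. Peaks were ranked by the submitters' signal value, whose scale was not stated, and the median Vha gene with a peak stood 44.5% of the way down the reproducible list, against 40.7% for all protein-coding genes with one. The range was from 0.156% at Vha100-2 to 96.2% at VhaAC39-2. In the replicates' whole lists the median Vha gene with a peak stood at 22.4%, 24.1% and 22.0%, against 21.9%, 23.0% and 21.4% for protein-coding genes. Of the 15 genes, 13 had a promoter peak with a q-value of 0.01 or less in replicate 1 and 15 had one in replicates 2 and 3. Sequencing depth was not given, so the precision of each signal is unknown beyond the spread between replicates.

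**Figure D1:**
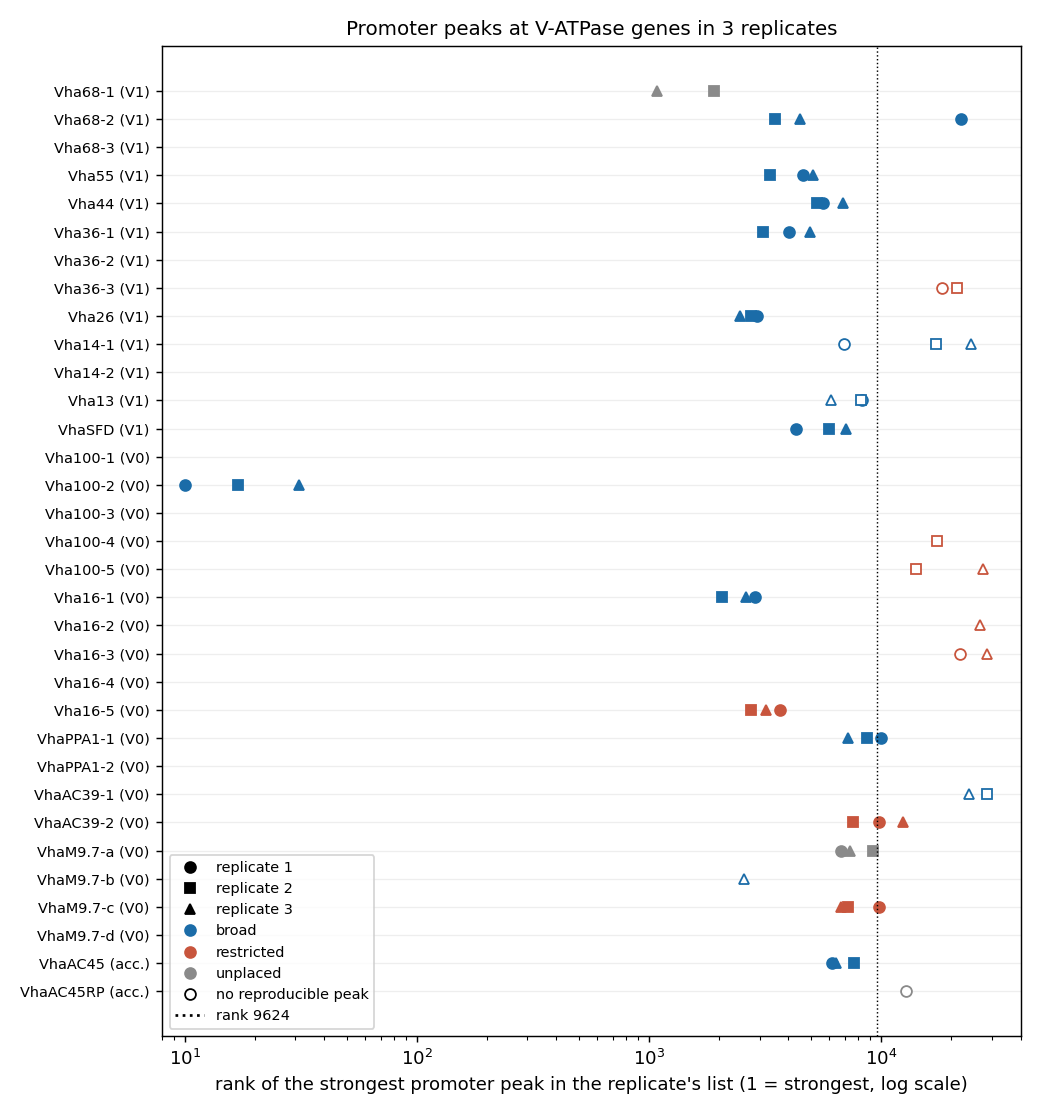
Rank of the strongest promoter peak of each of the 33 Vha genes in each replicate's list of 30000 peaks (log axis, 1 is the strongest), with colours for how widely a copy is used and open symbols for genes with no reproducible peak. Vha100-2 stands apart at ranks 10, 17 and 31, the other filled symbols lie between ranks 1089 and 22100, and genes with no symbol had no promoter peak in any replicate.

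The V1 sector had a reproducible promoter peak at 7 of its 13 genes, or 53.8%, in 6 of 8 subunit families. Over all protein-coding genes the share was 32.0%. Signals below are given as the signal divided by the median of its replicate's list, called scaled signal, so that 1 is the median peak. Among the 3 A subunit genes, which split ATP, Vha68-1 had the stronger reproducible peak (2L, 13004043 to 13004532, rank 1603) and Vha68-2 a weaker one (2L, 12974026 to 12974375, rank 4287). Vha68-3, which begins just past the end of Vha68-2, had none in any list, and the nearest reproducible peak lay 3505 bp from its start.

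Both A subunit peaks were missing from replicate 1. The scaled signal at Vha68-1 was 7.13 in replicate 2 and 15.2 in replicate 3, while the nearest peak of replicate 1 lay 3477 bp away. At Vha68-2 it was 4.39 in replicate 2 and 4.66 in replicate 3, and replicate 1 had only a peak of 0.598 at another of its 5 starts. Among the 1603 reproducible peaks that rank as high as that of Vha68-1, 4 had no peak within 500 bp in replicate 1, so such a gap was rare at this strength. Over the whole reproducible list, 1.86% of peaks had none in replicate 1, 0.842% in replicate 2 and 1.61% in replicate 3.

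The other V1 families with a reproducible peak were steadier. Vha55, the sole B subunit gene, had scaled signals of 3.46, 4.56 and 4.03 in replicates 1, 2 and 3 (mean 4.02 ± 0.552, SD, n = 3; 3R, 12627720 to 12628009, rank 4160). Vha44, the sole gene for the collar subunit C, had 2.86, 3.01 and 2.91, the smallest relative spread of the members (coefficient of variation 2.55%; 2R, 16336616 to 16336821, rank 5865). Those signals barely differ, against a median coefficient of variation of 20.1% over the 14 genes with a reproducible peak and a promoter peak in all 3 lists. The positions differed more, with the Vha44 point source at -152 bp from the start in replicate 1 and -93 bp in replicates 2 and 3 (negative is upstream). Vha36-1, the main copy of the rotor subunit D, had 3.89, 4.85 and 4.17 (2R, 15541250 to 15541510, rank 3896), whereas its copies Vha36-2 and Vha36-3 had no reproducible peak.

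Peripheral stalk subunits were split. Vha26, the sole E subunit gene, had scaled signals of 5.11, 5.44 and 8.16 (3R, 5591415 to 5591791, rank 2641). Vha13, the sole G subunit gene, had no reproducible peak, but each replicate held a weaker one, at 1.97, 1.98 and 3.35, and the pooled list held it at rank 10190, just past the end of the reproducible list. VhaSFD, the sole gene for the regulatory subunit H, had 3.67, 2.69 and 2.79 (2L, 16727843 to 16727972, rank 5590). Of the rotor subunit F genes, Vha14-1 had a weak peak that was uneven between replicates, at 2.36, 0.832 and 0.475 (pooled rank 11023), and Vha14-2 had none in any list.

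The V0 sector had a reproducible promoter peak at 7 of its 18 genes, or 38.9%, in each of its 5 families. That is near the 32.0% of all protein-coding genes. Vha100-2, 1 of 5 genes for subunit a, which holds the proton path, had the strongest peak of all members (3R, 18396774 to 18397662, rank 15). Its scaled signals were 118, 88.6 and 92.1 (mean 99.7 ± 16.3, SD, n = 3), each far above the highest value at any other member in any replicate, the 15.2 of Vha68-1. The point source stood at -312 bp from the inner of its 2 starts (negative is upstream), inside an intron of Vha100-2 and in the 5′ UTR of Vti1b, a vesicle SNARE gene read the other way, 245 bp past a start of that gene. A second, far weaker reproducible peak (rank 6992) lay 174 bp upstream of the outer start. Vha100-1, which is known for its role in neurons, and Vha100-3 had no promoter peak in any list, and Vha100-4 and Vha100-5 had only weak ones, with scaled signals of at most 1.07.

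Proteolipid genes of the ring differed within their family. Vha16-1, the main c subunit gene, had scaled signals of 5.18, 6.77 and 7.73 (2R, 6632938 to 6633434, rank 2519). Vha16-5, another c subunit gene, came close to it, with 4.20, 5.41 and 6.49 (2L, 10737167 to 10737464, rank 3095), but its point source lay 274 bp from its own start and 28 bp from that of CG12299, on the other strand. Vha16-4 had no peak in any list, and the tandem genes Vha16-2 and Vha16-3 had none above 0.604. VhaPPA1-1, a c'' gene, had 1.64, 1.87 and 2.73 (3R, 14903954 to 14904373, rank 8058), while its relative VhaPPA1-2 had none.

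In the d and e families the copies classed as widely used, VhaAC39-1 and VhaM9.7-b, had no reproducible peak, while other copies did. VhaAC39-2, a d subunit gene, had a weak peak of 1.66, 2.15 and 1.32 (3R, 23159389 to 23159593, rank 9262), and VhaAC39-1 had weak peaks of 0.406 and 0.491 in replicates 2 and 3 only. Of the small e subunit genes, VhaM9.7-a had 2.44, 1.75 and 2.64 (3L, 4262351 to 4262770, rank 6874) and VhaM9.7-c had 1.67, 2.26 and 2.96 (3L, 4186815 to 4187003, rank 7116), where the point source is also in introns of CG18675 and Teh2. VhaM9.7-d had no peak in any list. VhaM9.7-b, the widely used e gene, had a peak in replicate 3 only, at 7.91 and rank 2561, close there to the 7.73 of Vha16-1. The nearest peaks of replicates 1 and 2 lay 2858 bp and 2855 bp from its start, and the nearest pooled peak 16720 bp away.

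Of the accessory genes, VhaAC45, which encodes a partner of the V0 sector, had scaled signals of 2.66, 2.14 and 3.15 (2R, 9207213 to 9207632, rank 6107). Its relative VhaAC45RP had no reproducible peak, with 1.21 in replicate 1 and none in the other replicates. A further accessory gene, ATP6AP2, once named VhaM8.9, is no member by its present symbol and had a reproducible peak at rank 3041, 62 bp upstream of its start.

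**Figure D2:**
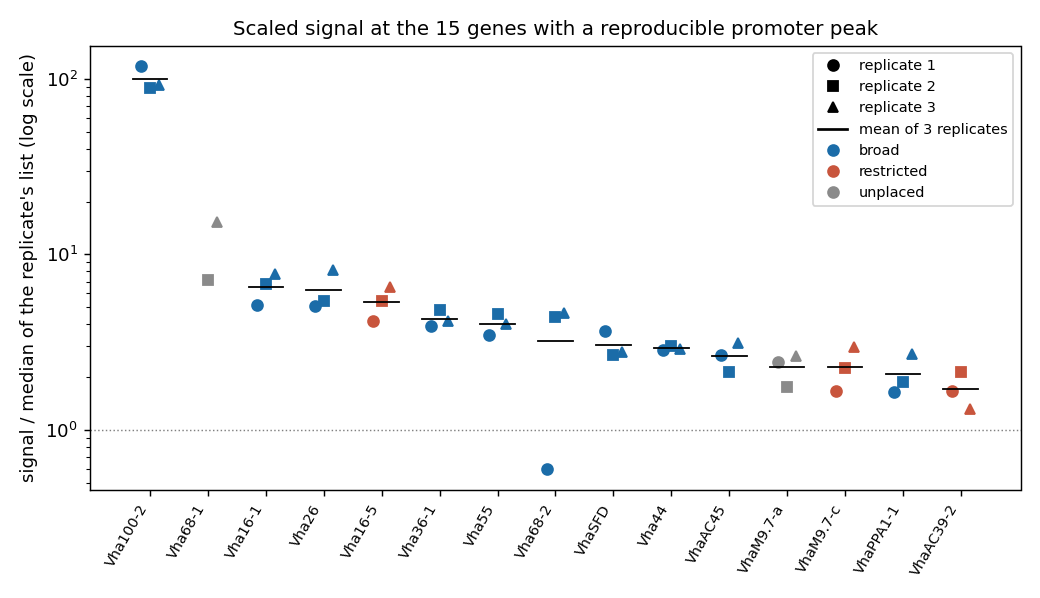
Scaled signal (signal divided by the median of the replicate's list, log axis) of the strongest promoter peak at the 15 Vha genes with a reproducible one, in order of rank, with a bar for the mean where all 3 replicates had a peak. Vha100-2 lies near 100, the rest mostly between 1 and 10, and replicate 1 has no value for Vha68-1 and one of 0.598 for Vha68-2.

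The 18 genes without a reproducible promoter peak fell into 3 kinds. The pooled list held a promoter peak for 7 of them, namely Vha13, Vha14-1, VhaAC45RP, Vha36-3, Vha100-5, Vha16-3 and VhaAC39-1, at ranks from 10190 to 29074 of 30000. VhaM9.7-b, Vha100-4 and Vha16-2 had a peak in a single replicate and none in the pooled list. The other 8 had no promoter peak in any list, and in the lists used here this shows only that no peak passed their cut-off of 30000. For the 500 bp limit, the outermost reproducible peak counted was the one at -312 bp from a Vha100-2 start, and the nearest left out lay 625 bp from Vha16-3 and 850 bp from Vha14-1.

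Widely used copies had promoter peaks more often than tissue-restricted ones. Copies were classed from general knowledge of fly V-ATPase genes and not from these files, as 14 broad, 15 restricted and 4 unplaced genes. The classes were written by hand with earlier results of these data known, and were not checked against expression data. Of the broad copies, 10 of 14 had a reproducible promoter peak, or 71.4% (95% Clopper-Pearson interval 41.9% to 91.6%), and of the restricted copies 3 of 15, or 20% (4.33% to 48.1%), with 2 of the 4 unplaced genes, Vha68-1 and VhaM9.7-a. Over all protein-coding genes the share was 32.0%. The intervals cover counting error only and genes are not replicates, so they do not test either class against that share. The 4 broad genes without a peak were Vha13, Vha14-1, VhaAC39-1 and VhaM9.7-b, and the 3 restricted genes with one were Vha16-5, VhaAC39-2 and VhaM9.7-c. In the replicates' strongest peaks the shares were 78.6% ± 7.14 for broad and 13.3% ± 6.67 for restricted copies (SD, n = 3), with differences of 64.8, 58.6 and 72.4 percentage points in replicates 1, 2 and 3. The broad share was the higher in every replicate. All protein-coding genes stood at 34.1%, 33.2% and 30.7% there. An exact two-sided sign-flip permutation test over the 3 differences gave p = 0.25, the smallest that 3 replicates allow, so this design cannot pass a usual threshold.

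Gene arrangement differed between these classes. Genes were called divergent where an opposite-strand gene starts no more than 500 bp away, and 8 of 14 broad copies were divergent against 2 of 15 restricted copies. Over all protein-coding genes, 54.8% of divergent and 22.0% of other genes had a reproducible promoter peak. Among Vha genes the same shares were 9 of 13, or 69.2%, and 6 of 20, or 30.0%. That difference of 39.2 percentage points was 45.1 ± 10.1 in the replicates (SD, n = 3; exact two-sided sign-flip permutation p = 0.25, the smallest possible), beside 33.9 ± 0.786 for all protein-coding genes. Among genes that were not divergent, 4 of 6 broad copies (66.7%) and 2 of 13 restricted copies (15.4%) had a peak, beside 22.0% of all such genes. Among divergent genes it was 6 of 8 and 1 of 2, beside 54.8%. How far arrangement accounts for the difference between broad and restricted copies was not tested. Genes with several starts also had peaks more often, with 5 of 8 Vha genes beside 50.6% of such protein-coding genes, against 10 of 25 Vha genes with 1 start beside 25.4%.

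The difference between the sectors depended on the replicates used. The V1 share was 53.8% and the V0 share 38.9%, a difference of 15 percentage points. In the replicates' strongest peaks the difference was 31.6, 22.6 and 22.6 points (exact two-sided sign-flip permutation p = 0.25, the smallest possible). It turned to -0.427 points without replicate 2, and likewise in peaks matched in all 3 lists, where Vha68-1 and Vha68-2 drop out. Both genes also drop out without replicate 3, but there Vha13 and Vha14-1 come in and the difference was 15 points. Of the 5 families with a single gene, 4 had a reproducible promoter peak, the exception being Vha13, beside 32.0% of all protein-coding genes. So few genes describe these families only.

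**Figure D3:**
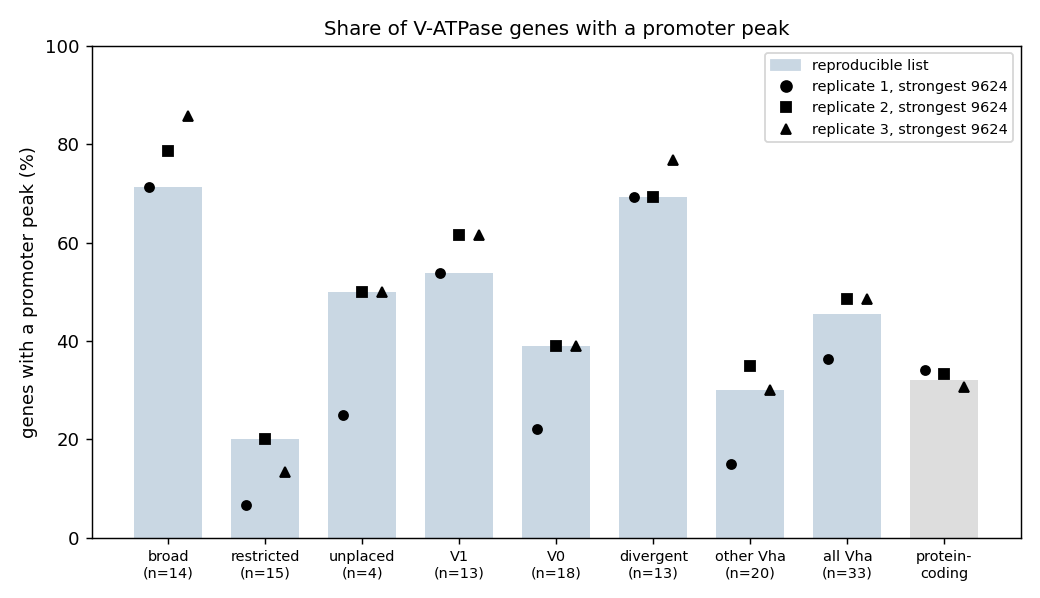
Share of genes with a promoter peak (percent, axis from 0 to 100) for Vha genes by use, sector and arrangement and for all protein-coding genes, with bars for the reproducible list and symbols for the 9624 strongest peaks of each replicate. Broad copies lie between 71.4% and 85.7% and restricted copies between 6.67% and 20%, while V1 lies between 53.8% and 61.5% and V0 between 22.2% and 38.9%.

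All 16 reproducible peaks at Vha starts had their point source upstream of the gene's own nearest start, from -32 bp at Vha36-1 to -312 bp at Vha100-2, with a median of -139 bp. Over all protein-coding genes, 84.5% of pairs of a gene and a peak were upstream, with a median position of -128 bp, so members lay where such peaks usually lie. Of the 16 peaks, 10 were also within 500 bp of a start of a neighbouring gene. Both Vha100-2 peaks were near starts of Vti1b. Vha68-1 shared its peak with mTor, the TOR kinase that is known to act at lysosomes, 231 bp upstream of that gene's start. Vha26 shared with noi, a splicing factor gene, Vha55 with Snx3, a sorting nexin gene, and Vha44 with Hmgs, which encodes HMG-CoA synthase. VhaAC45 shared with Gnptab, whose relatives in mammals tag lysosomal enzymes, and Vha36-1, Vha16-5 and VhaM9.7-a with CG8187, CG12299 and CG11586. In 4 of the 10 shared peaks the neighbour's start was the nearer. These were the strongest Vha peak, at Vha100-2 (245 bp from a Vti1b start, with the Vha100-2 start at -312 bp), and those at Vha44 (-30 bp from Hmgs, -93 bp from Vha44), Vha16-5 (-28 bp from CG12299, -274 bp from Vha16-5) and VhaM9.7-a (-91 bp from CG11586, -144 bp from VhaM9.7-a). A peak list cannot assign a shared peak to either gene. The remaining 6 peaks, at Vha16-1, Vha68-2, VhaSFD, VhaM9.7-c, VhaPPA1-1 and VhaAC39-2, had no other start within that distance.

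**Figure D4:**
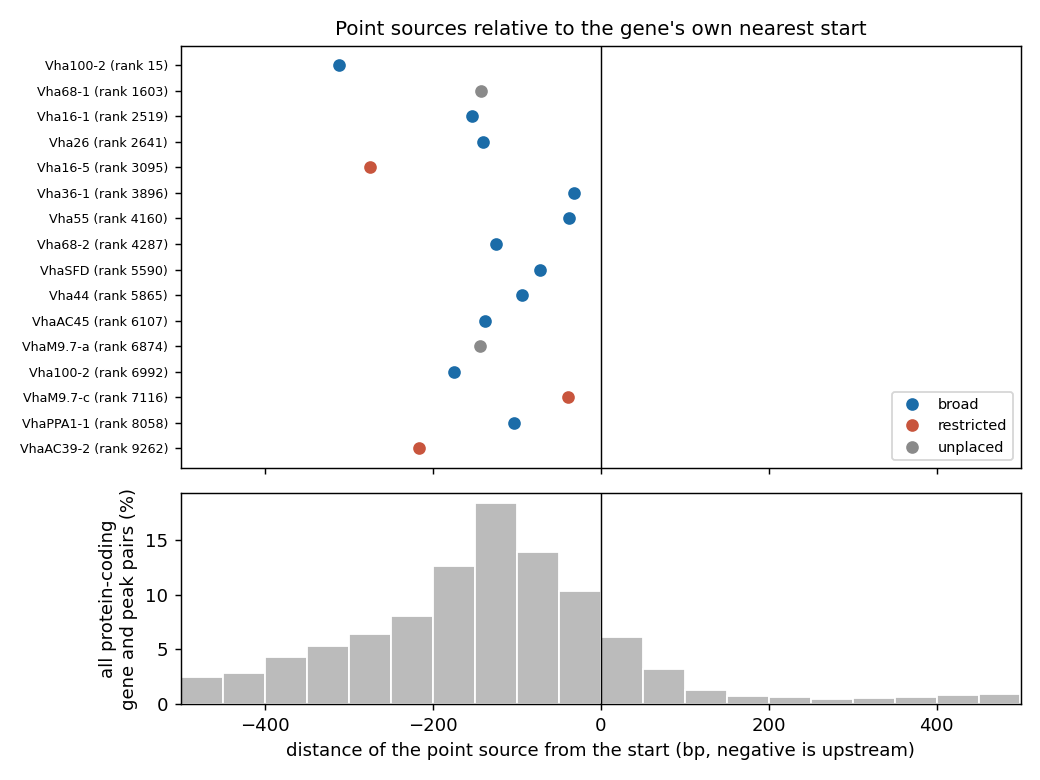
Distance of each of the 16 reproducible point sources from the Vha gene's own nearest start (bp, negative is upstream), above the percentage of all pairs of a protein-coding gene and its promoter peak per 50 bp. Every Vha point source lies left of 0, between -312 and -32 bp, where most of the background pairs also lie.

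The promoter words counted first were at 0 to 4 of the 16 Vha peaks, some above and some below their share of all promoter peaks. Words were counted on both strands within 50 bp of the 16 point sources and of all 4130 reproducible promoter peaks. The E-box CACGTG, the core bound by Mitf, which is known to activate V-ATPase genes, was in 0 of 16 windows, which allows up to 20.6% (95% Clopper-Pearson), and in 0.920% of all. Within 100 bp it was in 2, at Vha55 and Vha44, beside 2.15% of all, and the Vha44 match was the longer word TCACGTGA, found in 0.121% of all. Within 50 bp, the DREF word TATCGATA was in 0 windows (3.58% of all) and the M1BP word GGTCACACT in 1, at Vha68-2 (1.67% of all). The TATA word TATAAA was in 1, at VhaSFD, or 6.25% (95% Clopper-Pearson interval 0.158% to 30.2%), beside 22.5% of all. The GAGA word GAGAG was in 4, at Vha100-2, Vha68-2, Vha44 and VhaAC45, or 25% (7.27% to 52.4%), beside 9.18% of all. Both intervals cover the share of all. A match is no sign of binding, and a missing word says nothing of the factor.

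In the 300 bp from 250 bp before to 50 bp after the outermost start, CACGTG was in 3 of 33 Vha genes, namely Vha44, VhaAC45RP and VhaM9.7-d, beside 4.20% of protein-coding genes. Among other words, TTATCG was in 5 of 16 peak windows (Vha16-5, Vha36-1, VhaSFD, VhaM9.7-a and the outer start of Vha100-2) beside 7.75% of all promoter peaks, and CAGTGTTG in 3 (Vha36-1, Vha44 and VhaM9.7-c) beside 2.13%. Both words were chosen after the members' windows were read, so these counts support nothing. The GC content of the 16 windows ranged from 23.8% at VhaM9.7-a to 64.4% at Vha44, with a median of 38.6%, beside 32.7% for all promoter peaks.

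Genes that work with the V-ATPase were counted in lists. Of 31 genes for lysosomal proteins, vesicle fusion and the TORC1 pathway whose listed spelling matched the annotation, 16 had a reproducible promoter peak, or 51.6% (95% Clopper-Pearson interval 33.1% to 69.8%), beside 32.0% of protein-coding genes. The TORC1 kinase gene mTor was listed under another spelling and is not in this count, but it is in the annotation and had a reproducible peak, the one at rank 1603 that it shares with Vha68-1, so it would add 1 gene to both numbers. The highest of those counted were at Arl8, a small GTPase that moves lysosomes (rank 88), Lamtor3, a part of the Ragulator complex that binds the V-ATPase (rank 251), and car, a vesicle tethering gene (rank 1812). Of 3 genes for assembly and transcription of the pump, Rbcn-3A, needed for V-ATPase assembly, had a peak (rank 4473), and Rbcn-3B and Mitf had none. ATP synthase, the rotary relative in mitochondria, had a peak at 8 of 13 main genes, led by blw, ATPsynE and ATPsynCF6 (ranks 1824, 2873 and 4621), and at 0 of 4 extra copies, an interval that reaches up to 60.2%. The listed extra copies ATPsynDL and ATPsynFL did not match the annotation and are not among the 4. In replicates 1, 2 and 3 the main copies had peaks at 9, 9 and 7 of 13 genes, and the extra copies at 0 of 4. Of all protein-coding genes, 34.1%, 33.2% and 30.7% had one in the replicates' strongest 9624 peaks. In their whole lists it was 50.7%, 51.5% and 47.4%. The interval of the main copies is 31.6% to 86.1%, so both intervals cover the 32.0% of protein-coding genes. Counts this small describe these lists and were not tested.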

How the data were processed

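The members and lists were chosen with earlier results of these data known. The values are from the submitters' peak lists: 1 list of 30000 peaks per replicate, 1 called on the pooled alignments, and the optimal IDR list. Their build is dm6, per the labels. Peaks were called against a control, per the submitters' file descriptions. The aligner, peak caller and IDR threshold are not given in the sources used here. The deposited columns used were the signal of a peak, of unstated scale, its −log10 q-value and its point source offset. The reproducible list held the 9624 strongest pooled peaks, at the same point sources, so it has no spread of its own. The replicates' own strongest 9624 peaks gave the spread.

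Starts came from Ensembl release 115 on the same build, 23358 in all without pseudogenes and transposable elements, and 0 peaks fell outside the reference chromosomes. Sequences came from the RefSeq dm6 assembly. A gene's promoter peak in a list is its strongest within 500 bp of any start. Ranks and scaled signals use the signal within a list only. Every Vha gene could be named, with full values for those with a reproducible peak, with genes at the same point source, and with at most 3 genes per pathway list. VhaM8.9, Mtor, ATPsynDL and ATPsynFL were listed under symbols not matched here and were dropped, although VhaM8.9 (ATP6AP2) and Mtor (mTor) are in the annotation under other spellings. Classes, pathway lists and motifs were written by hand. Replicates are biological per the labels. With 1 group there is no fit across genes. Python 3.11.15, numpy 2.4.6, scipy 1.17.1 and matplotlib 3.10.9 were used, and the functions were tested on simulated data. Alternatives changed the distance, the list, the starts and the replicates.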

Additional observations from a re-analysis of the deposited data

How the results depend on the processing

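The count of Vha genes with a promoter peak stayed between 12 and 22 under the alternatives, except for 8 among the 4812 strongest reproducible peaks, which holds fewer peaks. The share of all protein-coding genes changed with the setting as well. Vha genes stood at 24.2% against 19.1% among those 4812 peaks and at 66.7% against 47.8% in the pooled list. Where the peak interval had to cover a start it was 36.4% against 23%, and without replicate 2 it was 39.4% against 30.7%. Leaving out a replicate gave 13 to 16. The differences of broad and restricted and of divergent and other copies kept their direction throughout. The median rank percentile of 44.5 moved to 59.5 at 250 bp, 58.1 with only the outermost start, 59.6 among those 4812 peaks, 21.6 in the pooled list, 61.6 in peaks matched in all 3 lists, and 50.6 to 66.4 without a replicate. Percentiles were taken within each setting's own list, so values from lists of other sizes, such as 30000 or 4812 peaks, are not comparable with 44.5. At 250 bp and with only the outermost start, the rank 15 peak of Vha100-2, at -312 bp from its inner start, no longer counted. What moved the other values was not tested. The V1 minus V0 difference reversed to -0.427 in peaks matched in all 3 lists, and ranged from -0.427 to 22.6 without a replicate. No paired analysis was possible because there was 1 group. Depth is unknown, so it sets no stated limit for weak peaks.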

Other observations

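Reproducible peaks away from the starts lay in or within 500 bp of several Vha genes. The strongest was 850 bp from the start of Vha14-1, past its far end (2R, 15678853 to 15679528, rank 113), and within 500 bp of the start of Gmppa, which acts in sugar nucleotide metabolism. It ranked 126, 138 and 80 in replicates 1, 2 and 3. Introns held peaks in Vha100-2 (3R, 18393490 to 18393838, rank 2822), Vha44 (2R, 16331660 to 16332027, rank 3970) and Vha16-1 (2R, 6630586 to 6630821, rank 7138), none of them within 500 bp of a start. Vha16-1 had another in its 3′ UTR (2R, 6626523 to 6626778, rank 4310), with ranks of 3199, 4407 and 7912 in replicates 1, 2 and 3. Past the far ends of Vha16-5 and VhaAC39-2, peaks at ranks 5768 and 8276 lay within 500 bp of starts of Nup107 and unk, and one past the far end of VhaAC45RP, at rank 7251, lay near no start.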
